A study of Saccharomyces cerevisiae with 2 samples.

Results

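The seripauperin (PAU), DAN and TIR genes of Saccharomyces cerevisiae encode small secreted proteins and mannoproteins of the cell wall. The members described here are the rows of the deposited table that are annotated as mRNA and named PAU, DAN or TIR followed by digits, which gave 30 genes of 6420 features (5995 of them mRNAs). They comprise 24 PAU genes, 2 DAN genes and 4 TIR genes. RNA-seq was performed on cdc55Δ cells, which lack the B55-type regulatory subunit of protein phosphatase 2A, and on wild-type (WT) cells of the same strain, with 1 library per strain. Both strains have the BY4741 background, a haploid MATa derivative of S288C with auxotrophic deletions, and both cultures were kept static at 30 °C for 6 h in YPD20, a rich medium with a high glucose content used here for alcoholic fermentation. The deletion strain was made in BY4741, and the number of independent clones examined was not stated. A single library represents each strain, so the spread between cultures is unknown, and a difference below is one between these libraries.

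The PAU genes form one of the largest gene families of budding yeast. Their products belong to the Srp1p/Tip1p family, together with the Tir and Dan proteins. The PAU products lack the long serine-rich stretch that is O-mannosylated in the Tir and Dan proteins. As background, DAN, TIR and many PAU genes are known to be silent or low in aerated cells and to be induced when oxygen and heme run out, when the zinc cluster factor Upc2p activates them and repression by Mot3p, Rox1p and the Tup1p-Cyc8p corepressor is relieved. TIR1, also called SRP1, and TIR2 are also known for induction by cold shock, and the name seripauperin refers to the low serine content of the PAU proteins relative to Srp1p. The Dan and Tir mannoproteins are known to take the place of Cwp1p and Cwp2p in the walls of anaerobic cells.

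The stretches upstream of DAN4, DAN1, TIR1 and PAU23 are shown because DAN4 and TIR1 were the 2 members that differed at least 2-fold between the libraries, DAN1 is the neighbour of DAN4, and PAU23 is a PAU gene with no 100-base stretch in common with another copy. Sequences are from the RefSeq R64 assembly of S288C, read in the direction of the gene, and end at the base before the start codon except for TIR1, for which the stretch from 600 to 501 bases upstream is given. Capitals mark matches, on either strand, to the motifs spelled out below. The stretches lie at chrX:715741-716040 (minus strand), chrX:709708-710007 (minus strand), chrV:174648-174747 (plus strand) and chrXII:223060-223359 (minus strand).
DAN4: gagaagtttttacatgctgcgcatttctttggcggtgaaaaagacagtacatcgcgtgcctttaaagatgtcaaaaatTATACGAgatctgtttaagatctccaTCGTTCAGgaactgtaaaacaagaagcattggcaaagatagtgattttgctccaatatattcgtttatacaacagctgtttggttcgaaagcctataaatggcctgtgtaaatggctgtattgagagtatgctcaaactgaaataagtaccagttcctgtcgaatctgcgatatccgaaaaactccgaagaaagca
DAN1: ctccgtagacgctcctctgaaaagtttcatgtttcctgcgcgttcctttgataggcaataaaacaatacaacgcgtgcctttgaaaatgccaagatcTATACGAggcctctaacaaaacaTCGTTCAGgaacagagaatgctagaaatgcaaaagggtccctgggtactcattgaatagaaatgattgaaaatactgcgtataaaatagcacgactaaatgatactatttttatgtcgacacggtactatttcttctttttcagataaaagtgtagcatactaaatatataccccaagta
TIR1: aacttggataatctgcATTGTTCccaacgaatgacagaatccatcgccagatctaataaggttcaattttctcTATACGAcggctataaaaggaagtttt
PAU23: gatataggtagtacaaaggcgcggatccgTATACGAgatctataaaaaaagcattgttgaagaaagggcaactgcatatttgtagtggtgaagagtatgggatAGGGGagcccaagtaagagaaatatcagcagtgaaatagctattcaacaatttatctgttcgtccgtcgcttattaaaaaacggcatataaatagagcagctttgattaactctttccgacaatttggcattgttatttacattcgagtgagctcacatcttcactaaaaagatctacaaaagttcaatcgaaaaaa

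DAN4 and DAN1 carried the same pair of matches in the same order, the sterol response core on the opposite strand followed by the AR1 element on the coding strand. Positions are counted upstream from the start codon to the first base of the match. The pair began at 222 and 196 bases upstream of DAN4 and at 203 and 180 bases upstream of DAN1. Over 600 bases upstream of all 30 genes, both strands were searched for the AR1 anaerobic response element in its C form (TCGTTCAG) and its T form (TCGTTTAG), the core to which Upc2p and its paralog Ecm22p are known to bind in sterol genes (TCGTATA), a core of the Rox1p site (ATTGTTC) and the stress response element read by Msn2p and Msn4p (AGGGG). No matches to these motifs overlapped each other in the members. The C form of AR1 stood upstream of 17 of the 24 PAU genes and both DAN genes but of none of the 4 TIR genes, and was found in 1.69% of 5977 windows upstream of mRNA genes. The T form stood upstream of 5 PAU genes, DAN1 and TIR4, against 2.08% of all windows. The sterol response core was found upstream of 21 PAU genes, both DAN genes and 2 TIR genes, against 8.58% of all windows. At least 1 of these 3 elements preceded 28 of the 30 genes, against 11.7% of all windows. Near-identical PAU copies also share upstream sequence, so that their matches are not independent of each other. The Rox1p core was found upstream of 3 of the 4 TIR genes, DAN4 and 2 PAU genes, against 13.9% of all windows. The stress response element was found upstream of 17 PAU genes and of no DAN or TIR gene, against 39.7% of all windows. A match describes letters and not a bound site.

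**Figure D1:**
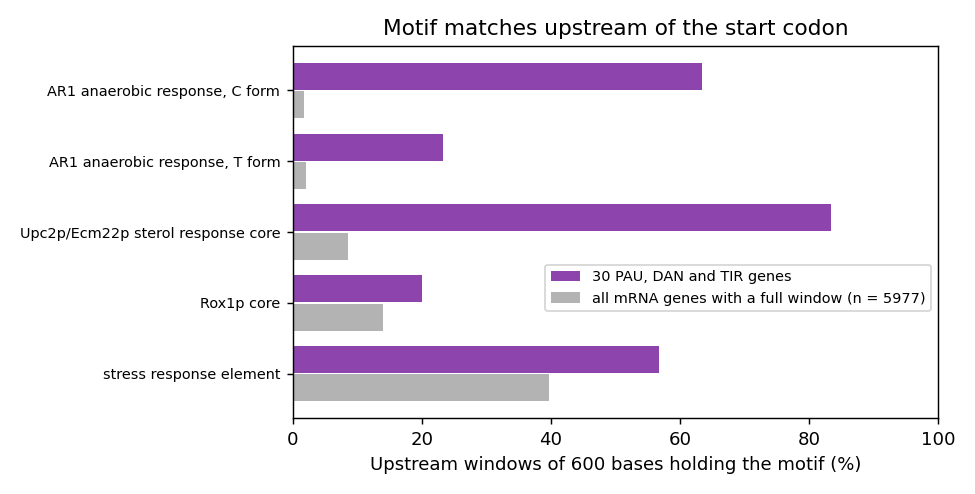
Share of windows of 600 bases upstream of the start codon (x axis, percent) that hold each motif, for the 30 PAU, DAN and TIR genes (purple) and for all 5977 mRNA genes with a full window (grey). The sterol response core was found in 83.3% of the members' windows and in 8.58% of all windows.

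The counts summed to 30133454 in cdc55Δ and to 33233285 in WT. CDC55 itself had 1 count in cdc55Δ and 2614 in WT, at least 775-fold lower in cdc55Δ against a floor of 3 counts. Of the mating type genes, 5 specific to MATa cells had 433 to 16145 counts in cdc55Δ and 793 to 24905 in WT, whereas 3 genes specific to the other mating type had 7 to 62 in cdc55Δ and 15 to 82 in WT, STE3 being the highest of them in both. Of the auxotrophic markers of BY4741, LEU2, URA3 and MET17 had at most 2 counts in each library, whereas HIS3 had 1275 in cdc55Δ and 1624 in WT. Each log2 fold change sets cdc55Δ over WT after TMM scaling of the counts, with a prior count of 0.5, and its 95% Clopper-Pearson interval covers counting error only. Reads copied by PCR do not count separate molecules, so the true error is larger. A gene is called measured here if its normalized counts averaged 50 or more over both libraries, and the 5705 measured features had a median log2 fold change of 0.00.

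All 30 genes together held 1360 counts in cdc55Δ and 1210 in WT, which is 0.00451% of the cdc55Δ counts and 0.00364% of the WT counts. In RNA from a whole culture, a lower level in every cell and fewer expressing cells cannot be told apart. Every member lay below the median RPKM of mRNAs (read counts divided by gene length and library total), which was 32.4 in cdc55Δ and 32.5 in WT. TIR1 and DAN4 were more than 2-fold higher in cdc55Δ, TIR2 and TIR3 were lower by less than 2-fold, and the sum of the PAU genes differed little. Of the 30 genes, 9 were measured: the 4 TIR genes, the 2 DAN genes, PAU6, PAU7 and PAU23. DAN4 reached the minimum only through cdc55Δ, with 106.2 normalized counts against 42.5 in WT. TIR2 (47.8 in cdc55Δ, 78.4 in WT), TIR3 (41.4 and 69.9) and PAU23 (49.9 and 64.3) reached it only through WT. The features compared with them passed the same rule. Among these 9 genes, 2 were at least 2-fold higher and 0 were at least 2-fold lower, or 22.2% in either direction. Of all measured features, 2.94% differed at least 2-fold, 1.91% being higher and 1.03% lower. Folds of weakly expressed genes scatter more, and among 1080 features with a mean of 50 to 500 normalized counts, the range that holds these 9 genes, 7.5% differed at least 2-fold and 5.09% were higher. With 9 genes, 1 gene is worth more than either share. The counting interval lay wholly beyond 0 for 4 of the 9 genes (44.4%), 2 higher and 2 lower, against 45.3% of the 1080 features, 22.3% higher and 23% lower. The log2 fold changes of the 9 genes centred on a median of -0.24 and those of the 1080 features on -0.03, and 6 of the 9 genes were below 0, against 54.3% of the features.

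**Figure D2:**
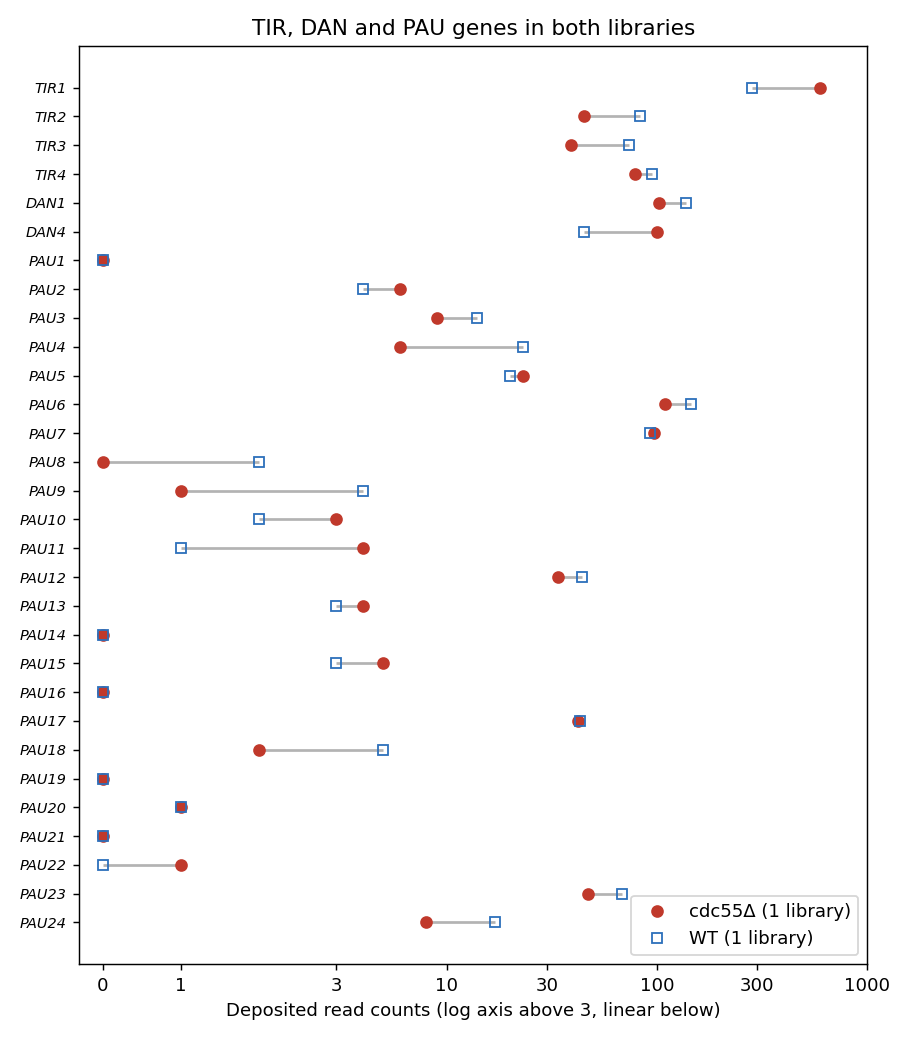
Deposited read counts (x axis, logarithmic above 3 and linear below) of the 4 TIR, 2 DAN and 24 PAU genes in the cdc55Δ library (red circles) and the WT library (blue squares). TIR1 stands apart with 593 counts in cdc55Δ and 284 in WT, and most PAU genes lie under 10 counts in both.

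TIR1 (YER011W, chromosome V from 175248 to 176012, plus strand) encodes a serine- and alanine-rich mannoprotein that is attached to the wall through a glycosylphosphatidylinositol (GPI) anchor. It had 593 counts in cdc55Δ and 284 in WT, an RPKM of 25.7 in cdc55Δ and of 11.2 in WT. Its log2 fold change was 1.23 (95% interval 1.02 to 1.44), a 2.34-fold higher level in cdc55Δ. TIR1 was the most abundant of the DAN and TIR genes in both libraries. It held 78.4% of the TIR counts in cdc55Δ and 53% in WT, and its RPKM exceeded that of 42% of mRNAs in cdc55Δ and of 19.1% in WT. The neighbouring gene YER010C had 829 counts in cdc55Δ and 884 in WT, a log2 fold change of 0.08 (-0.06 to 0.21).

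The other TIR genes did not share this direction. TIR2 (YOR010C, chromosome XV from 346195 to 346950, minus strand), the member closest to TIR1 with 72.7% identity of the coding sequence, had 45 counts in cdc55Δ and 83 in WT. Its log2 fold change was -0.71 (-1.27 to -0.17), and its interval does not overlap that of TIR1. TIR3 (YIL011W, chromosome IX from 333727 to 334536, plus strand), which encodes another wall mannoprotein of this group, had 39 counts in cdc55Δ and 74 in WT, a log2 fold change of -0.75 (-1.35 to -0.18). TIR2 and TIR3 thus differed to a similar extent, and counting error does not separate them. TIR4 (YOR009W, chromosome XV from 344335 to 345798, plus strand), which is known to be required for anaerobic growth and lies beside TIR2 with its end facing that of TIR2, had 79 counts in cdc55Δ and 95 in WT, a log2 fold change of -0.10 (-0.55 to 0.35). No TIR gene has a stretch of 100 bases that occurs elsewhere in the genome, so that reads of TIR1 and TIR2 can be told apart despite their similarity.

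DAN4 and DAN1 are next to each other on chromosome X, and both encode wall mannoproteins known to be made in anaerobic cells. DAN4 (YJR151C, from 712255 to 715740, minus strand) had 100 counts in cdc55Δ and 45 in WT, a log2 fold change of 1.31 (0.80 to 1.86) or a 2.48-fold higher level. DAN1 (YJR150C, from 708811 to 709707, minus strand) had 102 counts in cdc55Δ and 137 in WT, a log2 fold change of -0.26 (-0.64 to 0.12). The intervals of the 2 genes do not overlap. Both carry the pair of upstream matches shown above, but their other matches differ. DAN4 also has a Rox1p core 358 bases upstream, and DAN1 has a T form of AR1 412 bases upstream. Whether any of these matches bears on the difference was not tested. Per length, DAN1 was the more abundant of the pair in both libraries, with an RPKM of 3.77 in cdc55Δ and 4.60 in WT, whereas DAN4 had an RPKM of 0.952 in cdc55Δ and 0.388 in WT. DAN4 has 3486 bases and contains tandem repeats, and 473 of its 3387 stretches of 100 bases occur more than once within the gene but none occurs elsewhere. On the other side of DAN1, YJR149W had 623 counts in cdc55Δ and 744 in WT, a log2 fold change of -0.09 (-0.24 to 0.07), and on the other side of DAN4, YJR151W-A had 0 counts in cdc55Δ and 2 in WT.

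**Figure D3:**
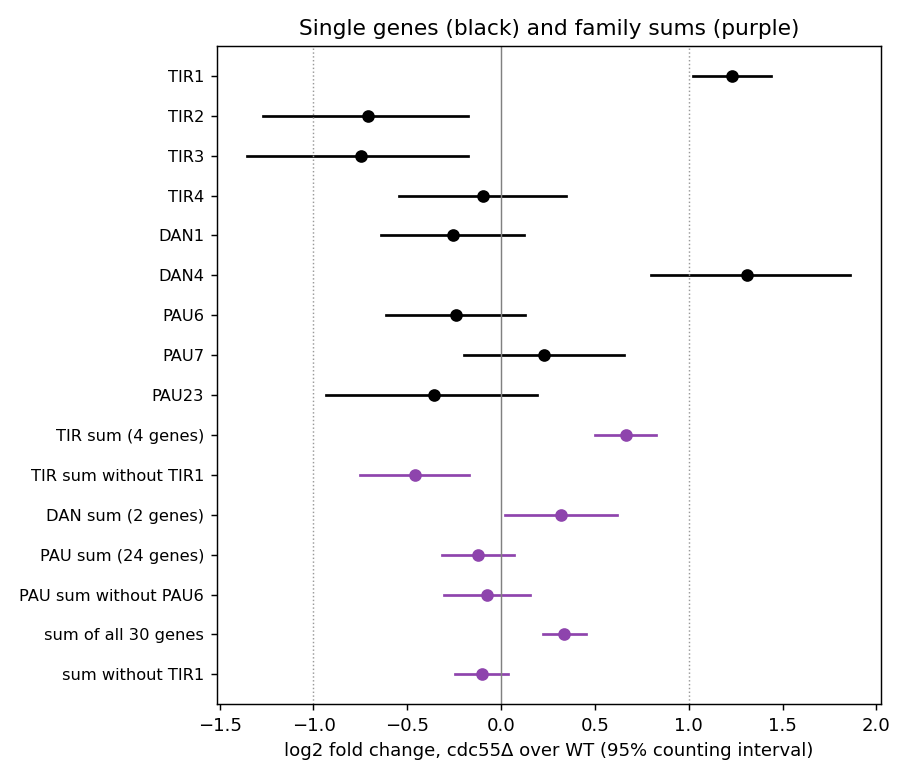
Log2 fold changes of cdc55Δ over WT (x axis) with 95% counting intervals for the 9 measured genes (black) and for family sums (purple), with dotted lines at 2-fold. TIR1 and DAN4 lie beyond 2-fold, and the TIR sum is positive with TIR1 (0.66) and negative without it (-0.46).

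Because many PAU genes are nearly identical, the families were also compared as sums, taken without a prior count. A sum does not depend on how the counted reads were divided among members. Reads with several sites, if left out of the counting, would be missing from the sum too. The 24 PAU genes together had 402 counts in cdc55Δ and 492 in WT, a log2 fold change of -0.12 (-0.32 to 0.07). The 2 DAN genes had 202 counts in cdc55Δ and 182 in WT, a log2 fold change of 0.32 (0.02 to 0.62). The 4 TIR genes had 756 counts in cdc55Δ and 536 in WT, a log2 fold change of 0.66 (0.50 to 0.83). This sum follows TIR1. Without it, the other 3 TIR genes had 163 counts in cdc55Δ and 252 in WT, a log2 fold change of -0.46 (-0.75 to -0.17). The sum over all 30 genes had a log2 fold change of 0.34 (0.22 to 0.45) with TIR1 and of -0.10 (-0.24 to 0.04) without it. After both TIR1 and DAN4 were set aside, a choice made after their values were seen, DAN1, TIR2, TIR3 and TIR4 had a summed log2 fold change of -0.39 (-0.62 to -0.16).

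The abundant PAU genes were PAU6, PAU7 and PAU23, none of which differed beyond counting error. PAU6 (YNR076W, chromosome XIV from 781918 to 782280, plus strand) had 109 counts in cdc55Δ and 145 in WT, a log2 fold change of -0.24 (-0.62 to 0.13). These counts may include reads of PAU18, whose coding sequence is identical to that of PAU6. PAU7 (YAR020C, chromosome I from 176856 to 177023, minus strand), which is annotated with only 168 bases, had 97 counts in cdc55Δ and 93 in WT, a log2 fold change of 0.23 (-0.20 to 0.66). Its RPKM of 19.2 in cdc55Δ and 16.7 in WT was the highest of the family. PAU23 (YLR037C, also named DAN2, chromosome XII from 222685 to 223059, minus strand) had 47 counts in cdc55Δ and 68 in WT, a log2 fold change of -0.36 (-0.93 to 0.19). The intervals of these 3 genes each include 0 and exclude the folds of TIR1 and DAN4.

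The other 21 PAU genes ranged from 0 to 42 counts in cdc55Δ, with a median of 3, and from 0 to 44 in WT, also with a median of 3. Of these, 5 genes (PAU1, PAU14, PAU16, PAU19 and PAU21) had no counts in either library, and 4 more had at most 3 in both. For a gene with no counts, 3 counts remain possible, a share of 9.96e-06% of the cdc55Δ counts or 9.03e-06% of the WT counts. No fold is given where both libraries had at most 3. Among the 12 remaining genes, PAU17 had 42 counts in cdc55Δ and 43 in WT, and PAU12 had 34 counts in cdc55Δ and 44 in WT. Only PAU4 (YLR461W), named here after its values were seen, had an interval beyond 0, with 6 counts in cdc55Δ and 23 in WT, a log2 fold change of -1.69 (-3.36 to -0.43).

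The sequences of the PAU genes limit how far single genes can be read. Of 276 pairs of PAU coding sequences, 70 were at least 95% identical, and the pairs PAU1 and PAU14, PAU6 and PAU18, and PAU21 and PAU22 were 100% identical. In 7 PAU genes all stretches of 100 bases occur elsewhere in the genome, in 14 some do, and in 3 (PAU7, PAU17 and PAU23) none does. The 3 genes without shared stretches had 42 to 97 counts in cdc55Δ and 43 to 93 in WT. Of the 14 with some shared stretches, the highest was PAU12 with 34 counts in cdc55Δ and 44 in WT, and the median was 4.5 in cdc55Δ and 3 in WT. The 7 fully shared genes had medians of 1 in cdc55Δ and 0 in WT, although PAU6 is among them. PAU6 and PAU18 (YLL064C), whose coding sequences are identical, had 109 and 2 counts in cdc55Δ, and 145 and 5 in WT. Unbroken identity between the 2 copies runs on for 118 bases before and 62 bases after the coding sequence. Beyond these runs the copies remain similar. Over 300 bases, identity was 96.3% before and 99.7% after the coding sequence. How the counting treated reads with several sites is not given in the sources used here, and its part in these low counts was not tested. As a sum, PAU6 and PAU18 had a log2 fold change of -0.27 (-0.63 to 0.10). Without PAU6, the PAU sum had one of -0.08 (-0.30 to 0.15), and over the 13 PAU genes with under 50% shared stretches it was -0.08 (-0.32 to 0.15). The PAU sum therefore stayed within counting error of 0 in each of these forms.

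**Figure D4:**
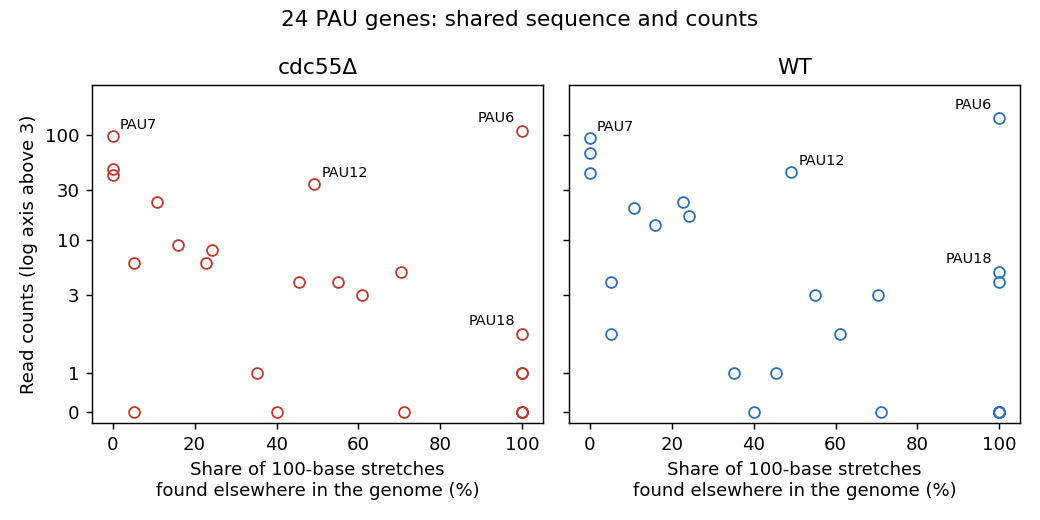
Read counts (y axis, logarithmic above 3) of the 24 PAU genes against the share of their 100-base stretches that occur elsewhere in the genome (x axis, percent), in cdc55Δ (left) and WT (right). PAU6 and PAU18 are both at 100% with identical coding sequences, at 109 and 2 counts in cdc55Δ and at 145 and 5 in WT.

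The PAU genes are mostly subtelomeric, and 19 of the 24 lie within 30 kb of a chromosome end. These 19 genes had 187 counts in cdc55Δ and 264 in WT, a log2 fold change of -0.33 (-0.61 to -0.05). PAU6 alone held 109 of these counts in cdc55Δ and 145 in WT, but itself differed less than this sum, at -0.24 (-0.62 to 0.13). The 5 PAU genes farther inside (PAU2, PAU5, PAU7, PAU17 and PAU23) had 215 counts in cdc55Δ and 228 in WT, a log2 fold change of 0.08 (-0.19 to 0.36). The intervals overlap, and this split was chosen after the counts were seen. The other mRNA genes within 30 kb of an end had a median of -0.02 on the log2 scale over the 254 measured ones. Of these, 16 were at least 2-fold lower and 6 higher, and the interval lay below 0 for 88 and above 0 for 58. Over all measured features the balance was the other way, with 59 at least 2-fold lower and 109 higher, and intervals below 0 for 1620 and above 0 for 1796. Whether the subtelomeric PAU sum differs from these neighbours was not tested. Of 4 genes for telomeric silencing, 0 differed at least 2-fold, against 2.94% of all measured features. They ranged from -0.11 for HDA1, a histone deacetylase gene, to 0.26 for SIR3, whose product spreads along silenced chromatin.

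The 3 families also differ in composition. Serine codons made up 24.8% to 30.6% of the codons in TIR genes, 20.5% in DAN1 and 22.5% in DAN4, against 5.83% to 11.9% in PAU genes. Alanine codons did not separate the families. They made up 6.37% in DAN4 and 12.9% to 21.6% in the other DAN and TIR genes, against 9.52% to 21.8% in PAU genes. TIR1, with 24.8% serine and 20.9% alanine codons, and TIR2, with 25.1% and 19.9%, were nearly alike in this, although they differed in opposite directions between the libraries.

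The 8 regulators listed for these genes were all measured, and 0 of them differed at least 2-fold, against 2.94% of all measured features. UPC2, the activator, had 2431 counts in cdc55Δ and 2920 in WT, a log2 fold change of -0.10 (-0.17 to -0.02). Its paralog ECM22 had one of 0.01 (-0.08 to 0.09). ROX1, the hypoxic repressor, had 476 counts in cdc55Δ and 926 in WT, a log2 fold change of -0.79 (-0.95 to -0.63). MOT3, the other repressor, had 560 counts in cdc55Δ and 469 in WT, a log2 fold change of 0.42 (0.24 to 0.60). The 2 repressors thus differed in opposite directions beyond counting error. HAP1, the heme-responsive activator, had a log2 fold change of 0.53 (0.47 to 0.59). The corepressor genes TUP1 and CYC8 had 0.08 and 0.04, and SUT1, a regulator of sterol uptake, had -0.04, all with intervals that include 0.

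The TIR1 and DAN4 values stood beside mixed values of other genes that respond to low oxygen. Of 11 hypoxic and sterol import genes, 2 were at least 2-fold higher and 0 lower. Over all measured features, 1.91% were higher and 1.03% lower. The median log2 fold change of the 11 genes was -0.14, and the interval lay above 0 for 4 and below 0 for 6. Of the 5705 measured features, 1796 had an interval above 0 and 1620 had one below 0. Intervals are narrower for genes with more counts. CYC7, the hypoxic isoform of cytochrome c, had 77 counts in cdc55Δ and 36 in WT, a log2 fold change of 1.25 (0.68 to 1.88), and COX5B, a hypoxic subunit of cytochrome c oxidase, had one of 1.06 (0.96 to 1.15). AAC3, the anaerobic ADP/ATP carrier, was lowest at -0.95 (-1.11 to -0.80). AUS1, a sterol importer gene next to TIR2, had 1288 counts in cdc55Δ and 1663 in WT, a log2 fold change of -0.20 (-0.31 to -0.09). Of 7 other GPI-anchored wall mannoprotein genes, 2 were at least 2-fold higher and 0 lower, beside the same shares of all measured features. Their median was 0.37, and the interval lay above 0 for 6 and below 0 for 1, against 1796 and 1620 of the 5705 measured features. CWP1, the counterpart of the DAN and TIR genes in aerated cells, had 2341 counts in cdc55Δ and 940 in WT, a log2 fold change of 1.48 (1.38 to 1.60), and CWP2 had one of 0.54 (0.45 to 0.63). SED1, which encodes a stress-induced wall protein, had one of 1.01 (0.92 to 1.09). TIP1, a member of the same Srp1p/Tip1p family as TIR1, had 531 counts in cdc55Δ and 1081 in WT, a log2 fold change of -0.86 (-1.01 to -0.71).

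**Figure D5:**
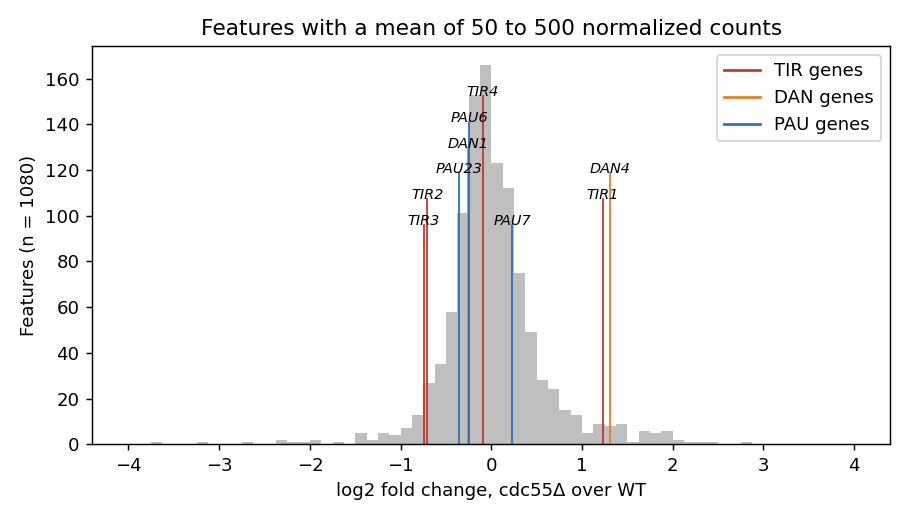
Distribution of log2 fold changes of cdc55Δ over WT (x axis) over the 1080 features with a mean of 50 to 500 normalized counts (grey, number of features on the y axis), with the 9 TIR (red), DAN (orange) and PAU (blue) genes marked. TIR1 (1.23) and DAN4 (1.31) lie in the upper tail, which holds 5.09% of the features beyond 2-fold, and the other 7 lie between -0.75 and 0.23.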

How the data were processed

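RNA-seq libraries of cdc55Δ and WT cells, 1 per strain, were analysed. After demultiplexing with Cutadapt, the authors aligned the paired reads to S288C with hisat2 and deposited raw counts for each annotated transcript. featureCounts is named in the submitters' processing notes, without its settings for strand or for reads with several sites. The RPKM values deposited by the authors divide each count by the listed length and all counts of the library, and are used as levels. The TPM values that the authors deposited beside them were not used.

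Counts of 30133454 (cdc55Δ) and 33233285 (WT) were scaled by TMM (edgeR 4.0.16, R 4.3.3). Folds and Clopper-Pearson intervals were computed with SciPy 1.17.1 in Python 3.11.15. Both were run on simulated counts, for the intervals with counting error alone and for the folds with an assumed extra spread. Such a run checks the computation and cannot show the spread between cultures. The quasi-likelihood test of edgeR needs replicates and was not run, so no p-value is given. Features were matched to R64 by accession (6103 of 6106), and all 30 members had the R64 length and overlapped no other annotated gene. Identities come from global alignments (Biopython 1.88). Members averaging 50 or more normalized counts were named, with CDC55, all listed regulators and the largest rise and fall of each list. PAU4, PAU12, PAU17, COX5B, SED1 and CWP2 were singled out after their values were seen. The members, the lists and the limits were chosen with earlier results of these data known. Alternatives were other normalizations (DESeq2 1.42.0 size factors among them), prior counts, minimums and thresholds.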

Additional observations from a re-analysis of the deposited data

How the results depend on the processing

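The normalizations (DESeq2 size factors, library size only, upper-quartile, TMM on protein-coding features, iterated DEGES) and prior counts of 0.1 and 2 left each of the 63 recomputed values of the 9 named genes with its direction and within its counting interval. The number of genes changed at least 2-fold, 2 higher and 0 lower, moved with the minimum and the threshold. A threshold of 1.5-fold, or an interval beyond 0, gave 4 genes in all, 2 of them lower. Without a minimum there were 7, of which 4 were higher and 3 lower, but these include genes with at most 3 counts. A minimum of 10 gave 1 lower gene, and a minimum of 200 left 1 gene, TIR1, which was higher and set the median at 1.23. The TIR sum reversed to -0.46 without TIR1, and the median of the TIR genes was -0.40. The sum over all 30 genes reversed to -0.10 without TIR1, and the median of the measured genes was -0.24. The DAN sum moved to 1.32 without DAN1, that is, to DAN4 alone. No paired analysis was possible because each strain has 1 library. Of the 21 PAU genes that were not measured, all but PAU5, PAU12 and PAU17 had intervals over 2 log2 units wide or without a bound, so that differences under 2-fold in them were not detectable at this depth.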
